A study of Mus musculus with 6 samples.

Results

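The genes described are 9 of the interleukin-1 system in mouse macrophages: the cytokines Il1a, Il1b and Il18, their soluble inhibitors Il1rn and Il18bp, the inflammasome sensor Nlrp3, its adaptor Pycard, and the inflammatory caspases Casp1 and Casp4. They were chosen by name, and each was read from the probe set that the platform annotation gives to that gene alone, taking the one with the highest mean over the 6 arrays where there were several. They are 9 of 18194 genes on the array. All 9 are among the 13587 genes tested, which reached the array median on at least 1 array. The macrophages came from the peritoneal cavity of mice injected with thioglycollate, an irritant that recruits them, and the mice had a C57BL/6 x 129Sv background. The wild-type group is labelled only as wildtype. The other group is LysM-Cre+;Akirin2fl/fl (Akirin2 KO), in which Cre expressed from the lysozyme gene of myeloid cells deletes floxed Akirin2, a nuclear protein needed for part of the response to microbial products. Cells of each genotype were left unstimulated (0 h) or given 100 ng/ml lipopolysaccharide (LPS), a component of the bacterial outer membrane, for 2 or 4 h. A single array was run per condition, 6 in all and without replicates, and a difference between the genotypes cannot be told apart from one between the preparations. The sources used here give neither the age of the mice nor how many contributed to a sample.

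Interleukin-1 alpha and beta act through the same receptor and drive fever, leukocyte recruitment and local inflammation, while the receptor antagonist made from Il1rn occupies that receptor without signalling. Macrophages make interleukin-1 beta as an inactive precursor. An inflammasome, in which a sensor such as NLRP3 gathers the adaptor ASC (gene Pycard) and caspase-1, cleaves that precursor and the precursor of interleukin-18. Mouse caspase-4, also called caspase-11, senses LPS inside the cell and cleaves gasdermin D, whose pores release the cytokines and can kill the cell. Transcription supplies the precursors and the sensor, a step known as priming, and arrays measure that step only, not cleavage or release.

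The stretches of 250 bases upstream of the annotated starts of 4 genes are shown because these genes carry the results below: Il1a and Il1b, the pair that LPS changed most among the 9, Il1rn, which read higher in Akirin2 KO arrays where that pair was lower, and Casp4. The sequences are RefSeq's for GRCm38.p6, read 5′ to 3′ on the strand of the gene. Capitals mark matches to any of 6 motifs searched on both strands.
Il1a: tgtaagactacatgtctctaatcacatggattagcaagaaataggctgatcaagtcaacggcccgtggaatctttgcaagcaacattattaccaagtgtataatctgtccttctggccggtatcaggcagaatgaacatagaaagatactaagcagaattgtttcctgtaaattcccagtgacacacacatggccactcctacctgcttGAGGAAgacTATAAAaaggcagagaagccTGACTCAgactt
Il1b: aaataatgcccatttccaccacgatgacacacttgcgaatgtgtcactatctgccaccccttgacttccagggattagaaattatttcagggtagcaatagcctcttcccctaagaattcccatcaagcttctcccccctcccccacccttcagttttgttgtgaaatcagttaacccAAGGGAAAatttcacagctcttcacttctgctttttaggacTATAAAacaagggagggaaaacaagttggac
Il1rn: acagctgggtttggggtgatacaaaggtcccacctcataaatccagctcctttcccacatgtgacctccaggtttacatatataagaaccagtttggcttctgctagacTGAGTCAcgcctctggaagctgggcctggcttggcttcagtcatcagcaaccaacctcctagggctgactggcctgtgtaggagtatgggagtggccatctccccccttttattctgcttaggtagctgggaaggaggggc
Casp4: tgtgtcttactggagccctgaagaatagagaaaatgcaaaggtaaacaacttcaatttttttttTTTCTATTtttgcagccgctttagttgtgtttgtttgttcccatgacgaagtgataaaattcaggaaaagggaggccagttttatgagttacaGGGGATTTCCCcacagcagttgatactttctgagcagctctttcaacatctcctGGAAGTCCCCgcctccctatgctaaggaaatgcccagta
The Il1a window is chr2:129309973-129310222 on the minus strand, and the Il1b window is chr2:129371140-129371389 on the minus strand. The Il1rn window is chr2:24336610-24336859 on the plus strand, the first of 3 that RefSeq gives for this gene, and the Casp4 window is chr9:5308599-5308848 on the plus strand, the first of 2. In RefSeq's order of coding genes, Il1a and Il1b are direct neighbours, and so are Casp1 and Casp4.

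Il1a and Il1b both held the TATA box letters TATAAA close to the start, at bases -32 to -27 in Il1a and -31 to -26 in Il1b, counted back from the start. Of 32851 upstream windows of all genes, 12.4% held these letters somewhere on either strand. On the forward strand with the first base between -35 and -25, limits chosen after the matches were seen, the share was 1.75%. Casp4 held the NF-kB consensus in overlapping matches over bases -93 to -83, the first reading GGGGATTTCC, and again on the reverse strand at -39 to -30. Of all windows, 7.25% held at least 1 match, as did the first windows of 2 of the 9 genes, Casp4 and Nlrp3. The AP-1 letters TGANTCA stood at bases -12 to -6 in Il1a, where the matched letters were TGACTCA. In Il1rn they stood at -141 to -135 in the first window and in neither of the other windows. Of all windows, 6.75% held them. Il1a also held the PU.1 core GAGGAA at bases -41 to -36, which 23.3% of all windows held. The other motifs searched were TTGCNNAA, of the C/EBP type, and AANNGAAA, of the type bound by interferon regulatory factors. TTGCNNAA was held by 9.56% of windows and by the first windows of 2 of the 9 genes. AANNGAAA was held by 21.3% and by the first windows of 5 of the 9, among them Il1b and Casp4. Il1rn lacked AANNGAAA in its first window but held it in windows 2 and 3, at -239 to -232 and -72 to -65. These matches describe letters in a window and do not show binding.

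The deleted gene checked the labels. Akirin2 stood at 7.43, 7.47 and 7.33 on the log2 scale in the wild-type arrays at 0, 2 and 4 h and at 5.18, 5.54 and 4.91 in the Akirin2 KO arrays, or 21.0%, 26.2% and 18.7% of wild-type on the linear scale. A second Akirin2 probe set showed no such difference (-0.027, limma adjusted p = 0.959), and it read 2.79 to 3.25 on all arrays, near background. The mean of both probe sets gave -1.11 (adjusted p = 0.00439), against -2.20 (adjusted p = 0.000328) for the first alone. Values of all probe sets ran from 2.26 to 14.2 with array medians of 3.18 to 3.23, so levels near 3 are close to background. Macrophage markers summed to high linear levels in both genotypes, 20176 to 21913 in wild-type and 18871 to 19995 in Akirin2 KO arrays. Such sums follow the brightest genes, and Itgam read 3.06 to 3.47, near background. By the limma test described below, 3 of 15 (C1qa, Fcgr1 and C1qc) were lower in the KO. That test called 1.06% of all genes lower and 0.891% higher in the KO. The median genotype effect of these 15 markers was -0.22. For neutrophils, which also make interleukin-1, 5 of 10 markers never reached the array median, which 13587 of all 18194 genes did reach. Of the other 5, 0 differed by that test. The neutrophil markers summed to 383 to 693 in wild-type and 395 to 612 in KO. Mesothelial and fibroblast markers summed to 878 to 998 in wild-type and 538 to 660.5 in KO, with 1 of 10 (Col1a2) lower by the test. The Col1a2 call was kept under 6 of 16 alternatives, and the median genotype effect of these 10 markers was -0.55. Resident peritoneal macrophage markers summed to 1649 to 1881 and 938 to 1414, with Cxcl13 lower, 1 of 9 measured. The Actb control probes gave a 3′ minus 5′ difference, a sign of RNA length, of 4.09 to 4.22 in wild-type and 4.36 to 4.64 in KO, while for Gapdh it was 4.33 to 4.42 and 4.34 to 4.52. The part of these differences in the genotype results was not tested. In such bulk samples, fewer cells of a type and less RNA per cell cannot be told apart.

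LPS raised both interleukin-1 cytokine genes from near background to high levels within 2 h, and raised the antagonist Il1rn, the sensor Nlrp3 and Casp4 by less. Il18 and Casp1 were raised at 4 h. Il18bp and Pycard passed no test. By limma on all 6 arrays, with LPS time and genotype as terms and p-values adjusted over 13587 genes at 0.05, 5 of 9 were higher at 2 h, where 3.96% of all genes were, and 7 of 9 at 4 h, where 7.76% were. At 2 h 0 of 9 were lower (2.89% of all genes; 1 of 9, Pycard, at an unadjusted p under 0.05), and at 4 h again 0 of 9 (7.61% of all genes; 0 at an unadjusted p under 0.05). Of all 13587 genes, 2756 at 2 h and 3826 at 4 h had an unadjusted p under 0.05, in either direction. The median effect over the 9 genes was 1.28 at 2 h and 1.56 at 4 h on the log2 scale, against -0.042 and -0.026 over all genes tested. With 1 array per condition, the spread behind each p-value is how far the arrays depart from equal time effects in both genotypes, not the spread between mice.

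**Figure D1:**
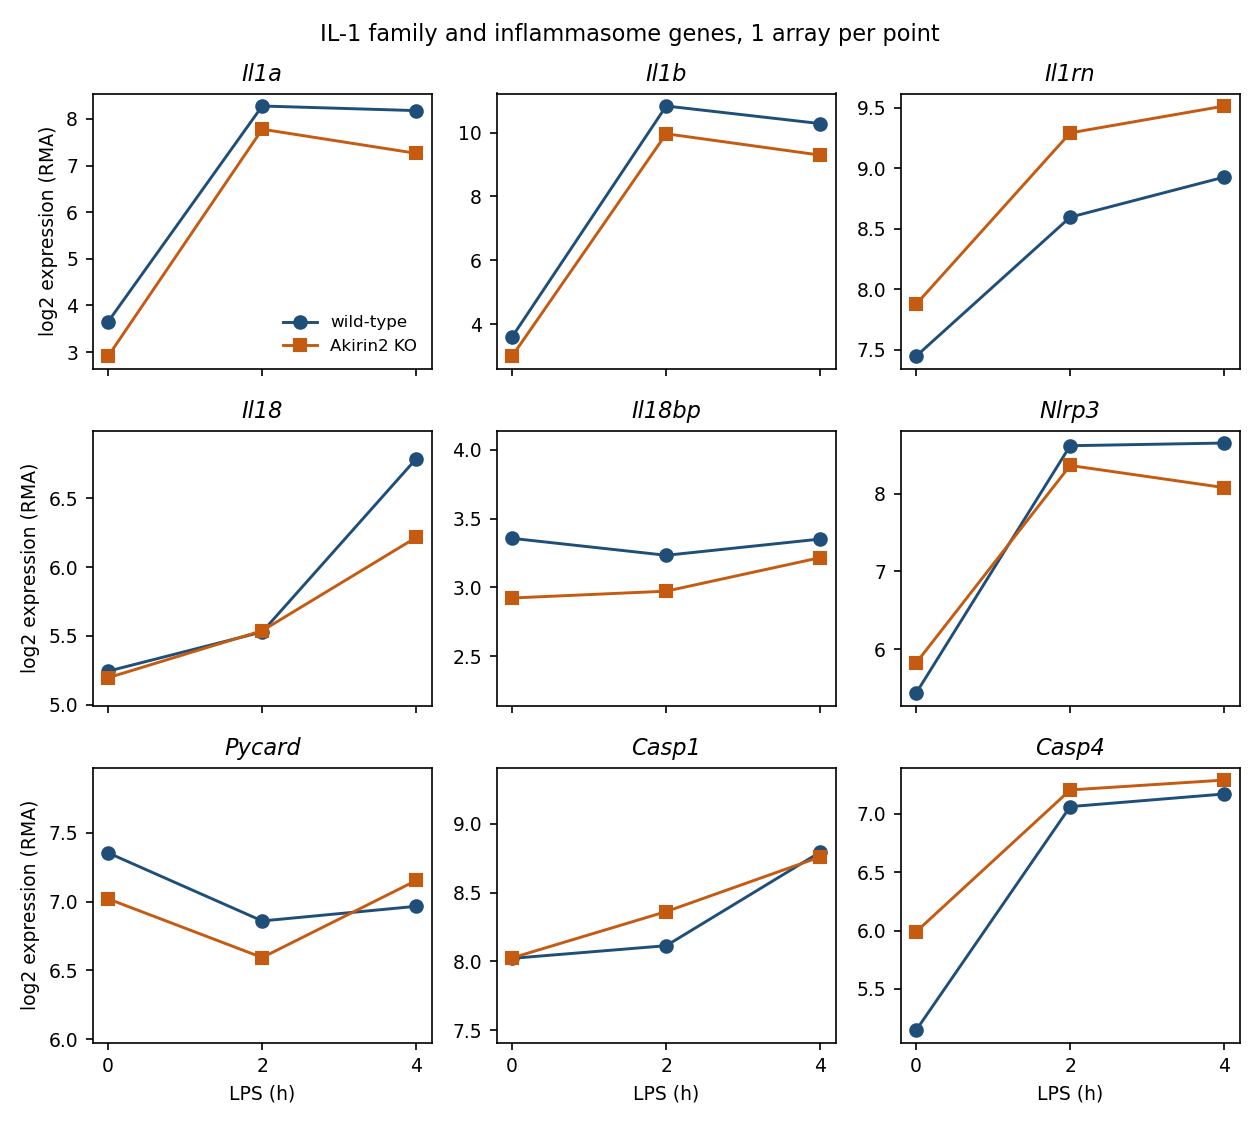
Log2 expression of the 9 genes (vertical axis) on each of the 6 arrays against hours of LPS (horizontal axis), with 1 point per array, in wild-type and Akirin2 KO macrophages. Il1a and Il1b climb from values between 2.91 and 3.65 at 0 h to values between 7.26 and 10.83 after LPS, and the KO points lie above the wild-type points at each time for Il1rn, by 0.43 to 0.70, and Casp4, by 0.12 to 0.84. Each panel has its own vertical scale.

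Il1b, the main secreted interleukin-1 of macrophages, read 3.59, 10.83 and 10.28 in wild-type arrays at 0, 2 and 4 h, and 2.99, 9.96 and 9.29 in Akirin2 KO arrays. All 4 LPS arrays lay far above both 0 h arrays, and in each genotype the 2 h value was the highest. On the linear scale the rise was 151-fold at 2 h and 103-fold at 4 h in wild-type, and 126-fold and 79.0-fold in KO. The 0 h values were near background, so these folds rest on values that differ little from it. The limma effect was 7.11 (SE 0.16, adjusted p = 4.31e-07) at 2 h and 6.50 (SE 0.16, adjusted p = 4.54e-07) at 4 h, and the difference of 4 h from 2 h was -0.61 (limma adjusted p = 0.106).

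Il1a encodes the related cytokine that is active as its full-length precursor and is also held at the cell surface. It read 3.65, 8.28 and 8.18 in wild-type arrays, against 2.91, 7.78 and 7.26 in KO arrays. As for Il1b, stimulated and unstimulated arrays did not overlap, and the 0 h readings were near background. Wild-type cells gave folds of 24.7 at 2 h and 23.1 at 4 h, and KO cells 29.2 and 20.4. The effect was 4.75 (SE 0.16, limma adjusted p = 2.27e-06) at 2 h and 4.44 (limma adjusted p = 2.64e-06) at 4 h.

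Il18, the cytokine that acts on T and NK cells to induce interferon-gamma, followed another time course. It read 5.24, 5.53 and 6.79 in wild-type arrays, against 5.20, 5.54 and 6.22 in KO arrays, so that the 4 h arrays stood above the rest and the 2 h arrays lay close to 0 h. It was 2.92-fold above 0 h at 4 h in wild-type and 2.03-fold in KO, against 1.22-fold and 1.27-fold at 2 h. The effect was 0.31 (SE 0.18, limma adjusted p = 0.396) at 2 h and 1.28 (adjusted p = 0.00200) at 4 h. From 2 to 4 h Il18 rose further by 0.97 (SE 0.18, limma adjusted p = 0.0330), the 1 of 9 to pass this test, where 1.56% of all genes did. At an unadjusted p under 0.05 there were 2 of 9, with Casp1 (0.54, SE 0.15, unadjusted p = 0.00746, limma adjusted p = 0.137), which passed under 3 of 13 alternatives. Of all 13587 genes, 1766 had an unadjusted p under 0.05 for this difference, in either direction. The Il18 call was lost without the wild-type 2 h array (0.81), the wild-type 4 h array (0.69) or the KO 2 h array (1.13). It was also lost with quantile normalization repeated (0.95, limma adjusted p = 0.0592) and with each array centred on its median (0.93, adjusted p = 0.102).

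Il1rn was already high without LPS, at 7.45 in wild-type and 7.87 in KO, and read 8.59 and 9.29 at 2 h and 8.93 and 9.51 at 4 h. Each stimulated array lay above both unstimulated ones. The rise was 2.22-fold and 2.79-fold at 2 and 4 h in wild-type and 2.67-fold and 3.11-fold in KO, with limma effects of 1.28 (SE 0.15, adjusted p = 0.00175) and 1.56 (adjusted p = 0.000287). Il18bp, which binds interleukin-18 and blocks it, read 3.36, 3.23 and 3.35 in wild-type arrays, against 2.92, 2.97 and 3.22 in KO. These values lie around the array median, and the LPS effects were -0.037 (limma adjusted p = 0.930) and 0.14 (adjusted p = 0.601).

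Nlrp3 rose early in both genotypes. It read 5.43, 8.62 and 8.65 in wild-type arrays, against 5.82, 8.36 and 8.08 in KO arrays, and no stimulated array overlapped the unstimulated ones. Its wild-type folds were 9.10 and 9.32, its KO folds 5.82 and 4.78. The effect was 2.86 (SE 0.22, limma adjusted p = 0.000169) at 2 h and 2.74 (adjusted p = 0.000113) at 4 h. Its adaptor Pycard read 7.35, 6.86 and 6.97 in wild-type arrays, against 7.02, 6.59 and 7.15 in KO, and its ranges with and without LPS overlapped. The LPS effects on Pycard were -0.46 (SE 0.17, limma adjusted p = 0.180) and -0.13 (adjusted p = 0.693).

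The caspases differed in their time course. Casp4 read 5.15, 7.06 and 7.17 in wild-type arrays, against 5.99, 7.20 and 7.29 in KO arrays. The 4 stimulated arrays lay within 7.06 to 7.29, while the unstimulated ones were further apart. Casp4 rose 3.77-fold and 4.06-fold in wild-type and 2.32-fold and 2.46-fold in KO, with limma effects of 1.56 (SE 0.20, adjusted p = 0.00268) and 1.66 (adjusted p = 0.000923). Casp1, the enzyme that cleaves the precursors of interleukin-1 beta and interleukin-18, read 8.02, 8.11 and 8.80 in wild-type arrays, against 8.03, 8.36 and 8.76 in KO. Its effect was 0.21 (SE 0.15, limma adjusted p = 0.503) at 2 h and 0.75 (adjusted p = 0.0119) at 4 h, and the latter call was lost without the wild-type 4 h array (0.67, adjusted p = 0.0769).

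**Figure D2:**
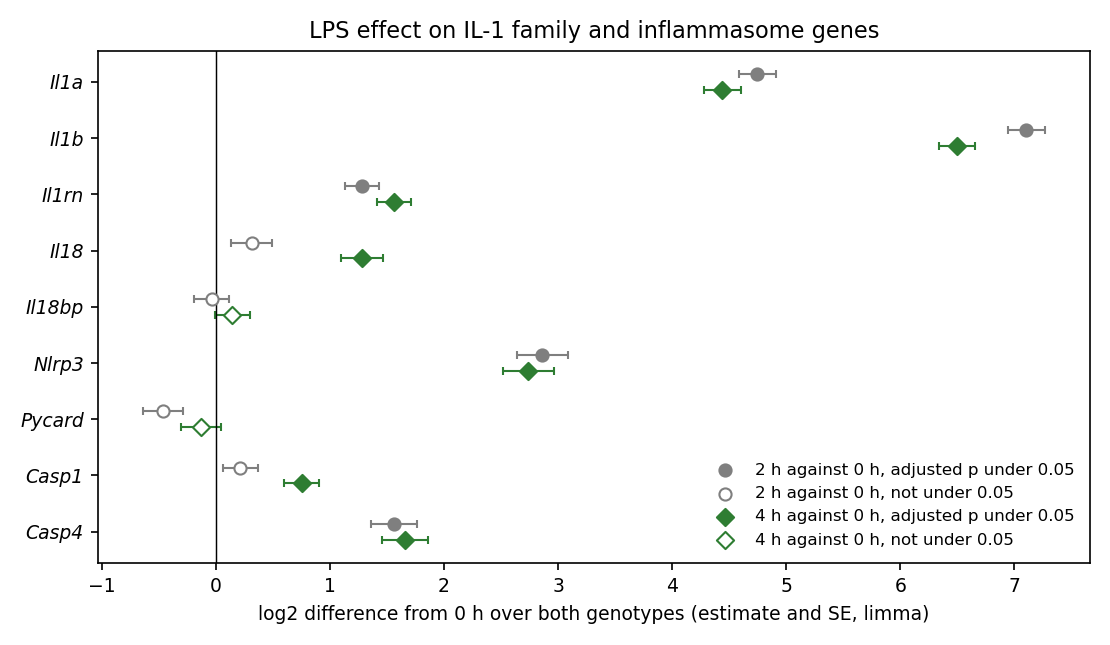
Log2 difference from 0 h (LPS minus unstimulated) of the 9 genes at 2 and 4 h. Each point is the limma estimate over both genotypes with its standard error, filled where the adjusted p was under 0.05. Il1b lies farthest to the right, at 7.11 and 6.50, and Il18 and Casp1 move mainly between 2 and 4 h.

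Counted by size alone, with no test because each comparison sets 1 array against 1, the genes at least 2-fold above 0 h were 5 of 9 in wild-type at 2 h (2.26% of all genes), 6 of 9 in wild-type at 4 h (3.72%), 5 of 9 in KO at 2 h (2.44%) and 6 of 9 in KO at 4 h (4.07%). The 5 at 2 h were Il1a, Il1b, Il1rn, Nlrp3 and Casp4 in both genotypes, and Il18 was added at 4 h.

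Between the genotypes, both interleukin-1 cytokine genes and their antagonist gave differences of opposite sign. Il1b and Il1a were lower in Akirin2 KO arrays after 2 and 4 h of LPS and passed the test over the 3 times. Their 0 h readings were also lower in KO, but these were near background, with the KO values below the array median, and do not show a difference without LPS. Il1rn read higher at every time but missed the adjusted threshold on its main probe set. The other 6 genes did not pass the test. By limma, 2 of 9 were lower in KO, where 1.06% of all genes were, and 0 of 9 were higher, where 0.891% were (1 of 9, Il1rn, at an unadjusted p under 0.05). Of all 13587 genes, 2091 had an unadjusted genotype p under 0.05, in either direction. The median over the 9 was -0.15, against -0.011 over all genes.

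Il1b in KO arrays was 65.8% of wild-type at 0 h, 54.7% at 2 h and 50.4% at 4 h on the linear scale, and the log2 differences were -0.60, -0.87 and -0.99. The genotype effect was -0.82 (SE 0.13, limma adjusted p = 0.0214). Without both 0 h arrays, where Il1b was near background, it was -0.93 (adjusted p = 0.00302). The call was lost without either 2 h array (-0.80, adjusted p = 0.0748) and with arrays centred (-0.80, adjusted p = 0.0745), while the estimate ranged from -0.93 to -0.74 over 16 alternatives.

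Il1a in KO arrays was 59.9%, 70.8% and 53.0% of wild-type at 0, 2 and 4 h, with log2 differences of -0.74, -0.50 and -0.92. Its effect was -0.72 (SE 0.13, limma adjusted p = 0.0365), and -0.71 (adjusted p = 0.0207) without both 0 h arrays. The call was lost without either 2 h array (-0.83, adjusted p = 0.0538), without either 4 h array (-0.62, adjusted p = 0.0868) and with arrays centred (-0.70, adjusted p = 0.0888). Every one of the 16 alternatives kept the negative sign, from -0.83 to -0.62.

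Il1rn in KO arrays was 135%, 162% and 150.2% of wild-type, with log2 differences of 0.43, 0.70 and 0.59. The effect was 0.57 (SE 0.12, limma adjusted p = 0.0647). It passed under 4 of 16 alternatives, those without 0 h arrays (0.64, limma adjusted p = 0.0232) and with the trend and robust options of eBayes (0.57, adjusted p = 0.000169). It did not pass without either 2 h array (0.51, limma adjusted p = 0.365) or either 4 h array (0.56, adjusted p = 0.123). With the mean of its probe sets it also missed the threshold (0.41, limma adjusted p = 0.139). The array has 3 probe sets for Il1rn. A second one read 5.83, 6.94 and 7.21 in wild-type arrays, against 6.35, 7.86 and 8.0 in KO, and passed when every probe set was tested on its own, a test added after the data were seen (0.74, SE 0.13, limma adjusted p = 0.0342). The third stayed between 2.99 and 3.56, near background, with an effect of -0.079 (adjusted p = 0.859). Whether the probe sets read different transcripts of Il1rn was not tested.

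**Figure D3:**
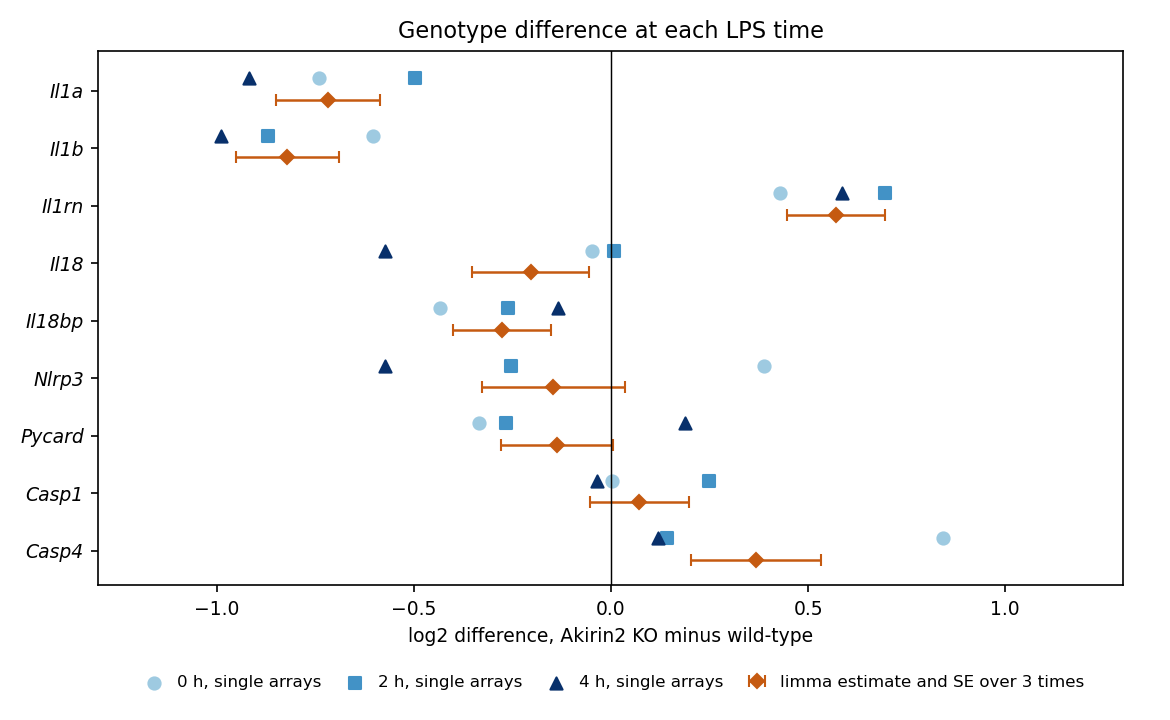
Log2 difference of Akirin2 KO minus wild-type for the 9 genes (horizontal axis) at 0, 2 and 4 h, each point from 2 single arrays, with the limma estimate over the 3 times and its standard error drawn below. Il1a and Il1b lie left of 0 at each time (-0.50 to -0.99), Il1rn lies right of 0 (0.43 to 0.70), and Nlrp3 crosses from 0.39 at 0 h to -0.57 at 4 h.

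Because a shift in the scale of a whole array moves both genes alike, the cytokine was also set against the antagonist within each array. The difference of Il1b minus Il1rn was lower in KO than in wild-type by 1.03, 1.57 and 1.58 at 0, 2 and 4 h, written as KO minus wild-type -1.03, -1.57 and -1.58, with a mean of -1.39 ± 0.31 (SD over 3 times), a 2.62-fold shift toward the antagonist. For Il1a minus Il1rn the values were -1.17, -1.19 and -1.50, with a mean of -1.29 ± 0.19 (SD over 3 times), or 2.44-fold. Il1b minus Il1a differed by 0.14, -0.37 and -0.072, without a common sign. At 0 h the cytokine readings behind these values were near background. The within-array differences were made from genes already seen to differ, so they are a description without a test.

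The other members gave smaller or less steady genotype differences. Casp4 was 0.84 higher in KO at 0 h and 0.14 and 0.12 higher at 2 and 4 h (effect 0.37, limma adjusted p = 0.339). Nlrp3 differed by 0.39, -0.25 and -0.57 (effect -0.15, adjusted p = 0.758 by limma). Il18 differed by -0.048, 0.0087 and -0.57 (limma effect -0.20, adjusted p = 0.568), so its KO level was 67.3% of wild-type at 4 h, after 96.7% at 0 h and 101% at 2 h. Il18bp differed by -0.43, -0.26 and -0.13 (limma effect -0.28, adjusted p = 0.342), near background. Pycard differed by -0.33, -0.27 and 0.19 (limma adjusted p = 0.704), and its other probe sets gave effects of -0.025 and -0.042. Casp1 differed by 0.0032, 0.25 and -0.035 (limma effect 0.072, SE 0.13, adjusted p = 0.834). At single times, 0 of 9 differed 2-fold either way at 0 h (1.93% of all genes did), 0 of 9 at 2 h (0.949%) and 0 of 9 at 4 h (1.45%).

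Of the 9 genes, Nlrp3 and Casp4 gave the widest gaps between the LPS responses of the genotypes, but neither passed the test of that difference. The induction of Nlrp3 was smaller in KO by a log2 difference of -0.64 at 2 h and -0.96 at 4 h, and that of Casp4 by -0.70 and -0.72. Both had read higher in KO before LPS, by 0.39 and 0.84, and for Casp4 the stimulated levels of the genotypes lay within 0.14 of each other. For Nlrp3 the stimulated KO levels were the lower ones. The limma interaction of genotype with stimulation was -0.80 for Nlrp3 (SE 0.26, unadjusted p = 0.0090, adjusted p = 0.225) and -0.71 for Casp4 (SE 0.25, unadjusted p = 0.0136, adjusted p = 0.251). By limma 0 of 9 passed, where 0.0294% of all genes did. At an unadjusted p under 0.05 there were 2 of 9, these ones, and 1739 of all 13587 genes. With the trend and robust options Nlrp3 passed (-0.80, adjusted p = 0.0107).

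Il1b gave -0.27 and -0.38, Il1a 0.24 and -0.18, and Il1rn 0.27 and 0.16, with interaction estimates of -0.33 (limma adjusted p = 0.630), 0.033 (0.971) and 0.21 (0.774). None of these 3 passed the test of a response difference. For Il1a and Il1b that test has little meaning, since their 0 h readings were near background and the KO ones lay below the array median. Il18 responded by 0.52 less in KO at 4 h (response difference -0.52, interaction adjusted p = 0.783 by limma), and Pycard by 0.52 more (adjusted p = 0.700). Counted by size, 0 of 9 differed 2-fold in response at 2 h (1.74% of all genes did) and 0 of 9 at 4 h (3.14%). The median response difference of all genes was 0.091 at 2 h and 0.12 at 4 h, and centring the arrays moved the median interaction of all genes from 0.10 to -0.11.

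The genes around the 9 were read from lists of the interleukin-1 receptors, other ligands, receptor signalling, other sensors, and activation, gasdermins and regulators. No list was tested as a whole, and each count stands against the shares of all genes called: at 2 h 3.96% rose and 2.89% fell, at 4 h 7.76% rose and 7.61% fell, and in KO 0.891% were higher and 1.06% lower. In the longest list, 1 gene of 21 is near the shares at 2 h. Among receptors, 8 of 9 on the array were tested, and LPS changed 1 of them, Il1r1, which rose at 2 h by 0.65 (SE 0.16, limma adjusted p = 0.0489), a call kept under 6 of 13 alternatives. Il1r1, the signalling receptor of both interleukin-1 cytokines, read 5.74, 6.26 and 6.25 in wild-type arrays, against 4.77, 5.56 and 5.16 in KO. It was lower in KO by -0.92 (SE 0.13, limma adjusted p = 0.0143), the 1 of 8 that passed. With the mean of its probe sets it was -0.46 (adjusted p = 0.0768). The fibroblast markers given above, of cells that also express Il1r1, were lower in the same arrays, and their part in this was not tested. The other receptors had genotype effects that missed the threshold, and the list's median was -0.040.

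The other interleukin-1 ligands gave 0 of 4 tested genes past any of these tests. The largest LPS effect was that of Il1f6, 0.42 at 4 h (limma adjusted p = 0.107), and Il33, the alarmin of epithelial and stromal cells, read 2.87 to 3.58, near background. In receptor signalling, 4 of 13 rose at 2 h and 3 of 13 at 4 h, and 0 of 13 differed between genotypes, with a list median of -0.22. The 3 at 4 h were Irak3, an inhibitory kinase-like protein of the pathway, with 2.39, the ubiquitin ligase Peli1 with 1.87, and the shared adaptor Myd88 with 1.24. Irak2 rose at 2 h by 0.75 (SE 0.16, limma adjusted p = 0.0297), which was lost without the wild-type 2 h array (0.58, adjusted p = 0.410) or the KO 2 h array (0.92, adjusted p = 0.0687). The others at 2 h were Irak3 with 1.75, Peli1 with 1.45, which was 0.56 (limma adjusted p = 0.0899) with the mean of its probe sets, and Myd88 with 1.07.

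Of 8 other sensors tested, 2 rose at 2 h and 4 rose and 1 fell at 4 h, and 0 differed between genotypes. Mefv, which encodes the pyrin sensor, read 3.77, 7.60 and 6.55 in wild-type arrays, against 3.71, 6.82 and 6.00 in KO, and its LPS effects were 3.47 at 2 h and 2.54 at 4 h. Nlrc5, an activator of MHC class I genes, rose by 1.46 at 4 h, Nod1, a sensor of bacterial cell wall fragments, by 1.03 at 2 h and 0.71 at 4 h, and Naip2 by 0.71 at 4 h. Naip5, a sensor of flagellin, fell by 0.70 at 4 h. Some of these calls were lost when 1 array was left out: that of Nod1 at 2 h without the KO 2 h array (0.94, limma adjusted p = 0.0584) and at 4 h without the wild-type 4 h array (0.67, adjusted p = 0.0744). That of Naip2 was lost without the KO 0 h array (0.41, adjusted p = 0.171) or the KO 4 h array (0.52, adjusted p = 0.191), and that of Naip5 without the wild-type 4 h array (-0.58, adjusted p = 0.122). Mefv and, with the loss given above, Nod1 thus joined Nlrp3 as sensor genes called higher at 2 h.

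Among 21 genes of activation, gasdermins and regulators, 1 rose (Gbp2, by 1.54) and 1 fell (P2rx7, by 0.91) at 2 h, and 7 rose and 4 fell at 4 h. The 4 that fell were P2rx7, given below, Nek7 (-0.71), Serpinb1a (-0.71) and Card6 (-0.56). The Nek7 call was kept under 11 of 13 alternatives, which were not examined for Serpinb1a and Card6. Those that rose at 4 h were led by Gbp2 with 3.03 and Gbp3 with 1.94, guanylate-binding proteins that act on bacteria and LPS in the cytosol, followed by Trim30a with 1.72 and Mlkl, the executioner of necroptosis, with 1.51, and included Gsdmd, the pore-forming substrate of caspase-1 and caspase-4, with 0.81 (SE 0.14, limma adjusted p = 0.00638). Between genotypes, 1 of 21 was higher and 2 of 21 were lower, with a list median of -0.057. P2rx7, the ATP-gated channel that triggers NLRP3, read 7.99, 7.01 and 6.96 in wild-type arrays, against 6.79, 5.95 and 6.26 in KO. Its genotype effect was -0.99 (SE 0.14, limma adjusted p = 0.0140), but with the mean of its probe sets it was -0.21 (adjusted p = 0.390). Its fall with LPS, by 0.91 at 2 h and 0.78 at 4 h, became -0.45 (limma adjusted p = 0.0852) and -0.42 (adjusted p = 0.0648) with that mean. The 2 h call was also lost without either 2 h array (-0.97, adjusted p = 0.0713, and -0.85, adjusted p = 0.119), and the 4 h call without the wild-type 0 h array (-0.62, adjusted p = 0.0579) or 4 h array (-0.56, adjusted p = 0.144). Gbp2 read 6.00, 7.31 and 8.95 in wild-type arrays, against 4.89, 6.65 and 7.99 in KO, with an effect of -0.91 (SE 0.13, limma adjusted p = 0.0166) that passed under all 16 alternatives. Panx1, a channel through which cells release ATP, read 3.38, 3.56 and 4.44 in wild-type arrays, against 3.87, 4.20 and 5.22 in KO, and was higher in KO by 0.64 (SE 0.12, limma adjusted p = 0.0431). That call was lost without either 2 h array (0.63, adjusted p = 0.186), without either 4 h array (0.57, adjusted p = 0.115), with quantile normalization repeated (0.60, adjusted p = 0.0562) and with arrays centred (0.65, adjusted p = 0.0549).

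**Figure D4:**
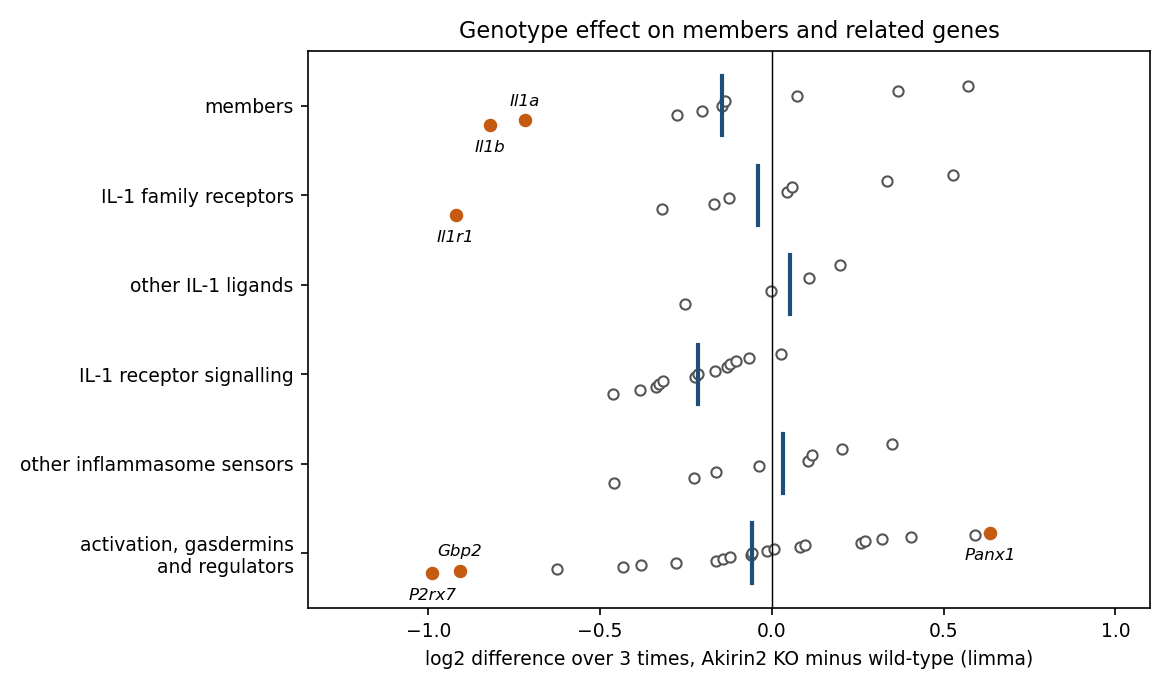
Genotype effect over the 3 times (log2, Akirin2 KO minus wild-type, limma) for the 9 genes and 5 lists of related genes, with 1 circle per gene, filled where it passed the adjusted threshold, and a bar at each list's median. Il1a, Il1b, Il1r1, P2rx7 and Gbp2 lie between -0.99 and -0.72, and Panx1 is the filled circle above 0, at 0.64.

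For each gene, the 3 genes with the most similar profile were found among the 13587, as the smallest root mean square log2 difference over the 6 arrays after centring each gene on its own mean. For Il1b these were Cxcl1 at 0.45, Tnf at 0.77 and Cxcl3 at 0.87, and 0 genes came within 0.25. For Il1a they were Socs3 at 0.24, Acod1 at 0.28 and Icosl at 0.37, and 1 gene came within 0.25. Il1rn lay nearest to Inhba and Pcdh7, both at 0.16, and Ddhd1 at 0.19, with 11 genes within 0.25. Nlrp3 lay nearest to Zc3h12c at 0.092, Tnfaip3 at 0.20 and Gpr85 at 0.21, and Casp4 to Ptpre at 0.14, Plagl2 at 0.18 and Traf5 at 0.19, each with 5 genes within 0.25. Il18 lay nearest to Naa25 at 0.068, Nt5c3 at 0.098 and Il15 at 0.10, with 94 within 0.25. Casp1, with Pomgnt1, Ppp1r9a and Klhl8 nearest, had 1393 genes within 0.25. Pycard, with Sgf29, Zfp213 and Rab3a, had 4055, and Il18bp, with Tbc1d23, Cggbp1 and Dpp7, had 6636, so for these 3 genes, whose values changed least over the arrays, many others lay about as near. By Pearson correlation in place of the distance, 0 or 1 of the 3 nearest genes was shared for each member.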

How the data were processed

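The 6 conditions of macrophages, 3 per genotype, were each measured on 1 Affymetrix array from biotin-labelled, amplified total RNA, per the labels. The deposited values are log2 expression per probe set, which the authors computed by RMA, per the submitters' processing notes. RMA models background, forces 1 distribution on all arrays and combines the probes of a set, which compresses folds near background. The RMA version is not given in the sources used here, nor is the probe definition.

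Of 45101 probe sets, 34958 carried a single symbol, 932 carried several and 9211 lacked one here, and the latter were not used. RefSeq gene numbers matched 34754 of those with 1 symbol. Each gene took its probe set with the highest mean, and 13587 of 18194 genes reached an array median on at least 1 array and were tested. Tests used limma 3.58.1 in R 4.3.3 (lmFit, eBayes, Benjamini-Hochberg at 0.05). The additive fit left 2 residual degrees of freedom with a prior worth 6.35, and the interaction fit 1 with 11.5. Single arrays were compared by size, 2-fold or more. Other tables and plots used Python 3.11.15. Arrays give no depth, and their number limits the precision.

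The members and gene lists were chosen with earlier results of these data known. Named are all 9 members, Akirin2, the 3 nearest profiles of each member and, per list and test, up to 4 of the genes called with the largest effects (Il1r1 alone among the receptors) or, where none was called, those with the largest effects. The markers called in the KO, Itgam, Naip5, Gsdmd, Nek7, Serpinb1a and Card6 were named after their values were seen. Of the further marker lists, 0 of 4 B cell, 0 of 4 mast cell, 0 of 1 eosinophil and 0 of 1 dendritic cell markers tested differed between genotypes. Among T and NK cell markers 1 of 5, Cd28, was higher in the KO, where 0.891% of all genes were. Alternatives changed the floor, the probe set, the normalization, the moderation, the thresholds and the arrays included. Testing every probe set on its own was chosen after seeing the data, and the forms of the NF-kB and interferon motifs were changed once after a first search.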

Additional observations from a re-analysis of the deposited data

Results flagged for a closer look

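Il18bp, the inhibitor of interleukin-18, gave small LPS differences of opposite sign in the genotypes. From 0 h it differed by -0.12 at 2 h and -0.0052, hardly at all, at 4 h in wild-type arrays. In Akirin2 KO arrays it differed by 0.050 and 0.29. The response at 4 h was larger in KO by 0.30 on the log2 scale, where the median of all genes was 0.12. The limma interaction over both times was 0.24 (adjusted p = 0.744), so the difference was not detected by that test. Under 6 alternatives it ranged from 0.022 to 0.24. All 6 values lay between 2.92 and 3.36, around the array median and near background.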

How the results depend on the processing

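Precision is limited by 1 array per condition, and Il18bp throughout, and Il1a and Il1b at 0 h, were read near background. No paired analysis was possible because each condition has 1 array and the conditions share only 1 replicate number. Dropping either array of a time gives the genotype estimate of dropping both, by construction. The calls of Il1a, Il1b, Il1rn, Nlrp3 and Casp4 for LPS held at 2 and 4 h under 13 alternatives each, as did that of Il18 at 4 h, and the exception among added ones was the Il1rn probe set near background (0.31 and 0.35). The cause of the following changes was not tested.

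With eBayes trend and robust, the members called were 1 lower at 2 h (0 in the reported fit), 2 higher and 1 lower from 2 to 4 h (1 and 0), 1 higher in KO (0) and 1 with a smaller response in KO (0). Over all genes this setting called 828 lower at 2 h, against 393 in the reported fit. From 2 to 4 h it called 433 higher and 442 lower, against 212 and 151. It also called 419 higher and 464 lower in KO, against 121 and 144, and 155 and 101 interactions, against 1 and 3. Repeated quantile normalization left 0 members higher from 2 to 4 h (182 over all genes), and gave 20 and 42 interactions over all genes. Centred arrays left 0 members higher from 2 to 4 h (123 over all genes) and 0 lower in KO, with 76 and 66 genes higher and lower in KO over all genes. Leaving out 1 array gave 0 to 2 members higher and 0 to 1 lower from 2 to 4 h, 0 to 1 higher in KO and 0 to 2 lower in KO. Without both 0 h arrays 1 was higher in KO (370 and 294 over all genes), without both 2 h arrays 0 were lower (72 and 86), and without both 4 h arrays 1 was lower. At an adjusted p of 0.1, 1 was higher in KO (244 over all genes).

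By size, a 3-fold rule left 3 members higher at 2 h than at 0 h within the KO, in place of 5. Between genotypes, where the 2-fold rule gave 0, a 1.5-fold rule gave 3 at 0 h, 2 at 2 h and 3 again at 4 h, and for response differences 2 at each time. Repeated quantile normalization gave 1 at 0 h and 1 response difference at 4 h, and centring gave 1 at 0 h, 2 at 4 h and 1 response difference at 4 h. Shares of all genes were not counted under these other rules and settings, so these member counts cannot be set against a background.

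Signs turned for these effects, none of which passed in the reported fit. For Il18bp at 2 h the value was 0.031 centred and -0.15 to 0.081 leaving out 1 array. For Pycard it was 0.19 at 2 h on its dimmest probe set, and at 4 h 0.095 averaging probe sets, 0.28 and 0.13 on its other probe sets and -0.37 to 0.12 leaving out 1 array. From 2 to 4 h, leaving out 1 array gave -0.45 to 0.20 for Nlrp3 and -0.090 to 0.28 for Casp4. The genotype effect became -0.079 for Il1rn on its probe set near background, 0.067 for Nlrp3 without the 4 h arrays (-0.41 to 0.067 leaving out 1 array) and -0.016 for Casp1 without the 2 h arrays. Centring turned the interaction to -0.18 for Il1a, -0.00085 for Il1rn and -0.11 for Casp1.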
